A study of Mus musculus with 58 samples.

Results

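Liver gene expression was compared between male Muta™Mouse animals given 40 mg/kg-bw/day of benz(a)anthracene (BaA) and vehicle controls. Every animal was of this transgenic strain, in which mutations can be scored in an inserted lacZ gene. The members were the 5 livers labelled D2 (mice 11 to 15, BaA in olive oil) and the 5 livers labelled D0 (mice 1 to 5, olive oil alone), 10 of the 58 samples of the series. The mice were about 10 weeks old, were gavaged daily for 28 days and were killed 72 h after the last dose. Livers of D1 (20 mg/kg-bw/day, 5 mice) and D3 (80 mg/kg-bw/day, 4 mice) and lungs of the same D0 and D2 mice served for comparison. RNA came from a random slice of the left lobe, with all its cell types, so fewer cells of a type and less RNA per cell cannot be told apart.

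BaA is a polycyclic aromatic hydrocarbon. Hydrocarbons of this class bind the aryl hydrocarbon receptor (AhR), which switches on the Cyp1 enzymes. These enzymes turn the hydrocarbon into metabolites that can bind DNA, and DNA damage in turn is read by p53, which induces genes for cell cycle arrest and repair. Liver is a main site of this metabolism. Other gene systems recur in the results. Type I interferon acts through transcription factors, STAT2 and IRF9 among them, that bind the interferon-stimulated response element and induce antiviral genes. Nuclear speckles and paraspeckles are bodies in the nucleus that hold splicing factors and long non-coding RNAs such as Neat1, and the cyclin L, CLK kinase and SR protein families act there in pre-mRNA splicing.

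On each array, Cy5 marked the RNA of 1 liver and Cy3 a pooled reference RNA of mouse cell lines. A level here is the log2 ratio of liver to reference, so 0 means equal signal, and a change is the D2 mean minus the D0 mean on the same log2 scale. A probe was called a differentially expressed gene (DEG) when its p, adjusted by Benjamini-Hochberg over all tested probes in limma, was 0.05 or less with a fold change of at least 1.5. Between 34.1% and 45.7% of the spots on a liver array were well above background, and 22800 probes were tested. Livers of the same dose correlated with r of 0.965 to 0.990, and 0 pairs of arrays were identical. Albumin (Alb), a defining product of hepatocytes, stood at 6.03 to 6.63 in the D0 livers and at 6.21 to 6.51 in the D2 livers. On every slide the D0 arrays occupied the first column, D1 the second, D2 the third and D3 the fourth. Array position and dose therefore cannot be told apart.

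The control liver of mouse 5 stood apart. Its correlation with the D2 livers averaged 0.977, against 0.974 with its own group, and it had the highest share of spots above background, 45.7%. The other arrays of its slide, which was scanned on a different day, also had high shares, 40.7% to 42.7%. On the remaining slides the shares were 34.1% to 39.4%. D0 mouse 2, on the same slide as mouse 5, also averaged 0.974 with its own group, but 0.9695 with the D2 livers. Counts, and the genes that mouse 5 moves most, are given with and without mouse 5. Mouse 5 was singled out on these same data for lying near the D2 livers. For genes where it did so, a larger change and a smaller adjusted p without it follow from that choice. They add no support. The named genes that were called kept their calls without mouse 5.

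Most of the DEGs were lower in the treated livers. Of the 22800 probes, 136 were called (0.596%), 7 higher (0.0307%) and 129 lower (0.566%). Without D0 mouse 5 the count rose to 252 (1.11%), with 10 higher (0.0439%) and 242 lower (1.06%), and 132 of the 136 were still called. With the slide as a block the count was 171 (0.75%). At an unadjusted p under 0.05, 2905 probes differed. The reference channel alone gave 1 called probe between the same arrays (0.00439%), and 0 of the 136 were called in it. The strongest declines were in Acnat2, Neat1, Col5a3, Zbtb16 and Ccnl2, and the strongest rises were in the U1 small nuclear RNA Rnu1b6 and in Tbx3.

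**Figure D1:**
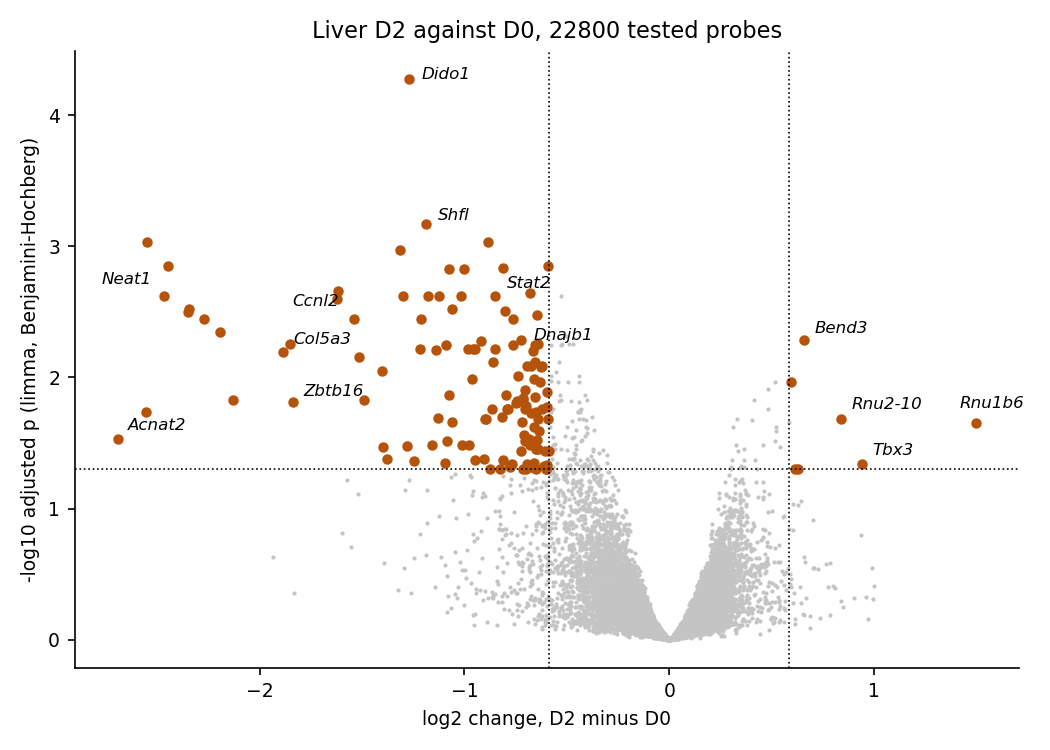
Change at D2 (horizontal, log2) against the -log10 adjusted p (vertical) for the 22800 tested probes of liver; called probes are filled in orange, grey points were not called, and dotted lines mark a fold change of 1.5 and an adjusted p of 0.05. The 129 called decreases outnumber the 7 called increases.

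The D0 and D2 livers were spread over 3 slides, with 2 D0 and 2 D2 arrays on the first, 1 and 2 on the second, and 2 and 1 on the third. Within each slide all 129 probes were lower and all 7 were higher at D2, which is a description, since the probes were called on these same arrays. The median difference of the 129 within a slide was -0.94, -0.97 and -0.68, beside -0.00, 0.00 and -0.02 over all tested probes. Of the 136 called probes, 6 were above background on 0 of the 5 D2 arrays and 7 on 1, so their levels at D2 are bounds or near them. Size was less firm: 56 of the 136 stayed called whichever of the 10 mice was left out in turn (10 leave-outs), and the count ranged from 72 without D0 mouse 4 to 252 without D0 mouse 5.

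Neat1 and Meg3, both long non-coding RNAs, were among the largest decreases. Neat1, the scaffold of paraspeckles, read 0.82, -0.99, 0.55, -0.29 and -2.14 in D0 mice 1 to 5, and -2.74, -3.05, -2.98, -2.90 and -2.71 in D2 mice 11 to 15. The groups did not overlap, but D0 mouse 5 lay closer to the D2 livers than to the next lowest control. The change was -2.46 (SE 0.36, adjusted p = 0.00239), a 5.52-fold decrease, and -2.90 (adjusted p = 1.46e-06) without that mouse. All 5 other probes that the array design names NEAT1 were called too, with changes of -2.27 to -2.55. Meg3, an imprinted non-coding RNA, read 1.41, 1.36, 1.13, 0.68 and -0.50 in the controls and -0.63, -0.36, -0.38, -0.55 and -0.39 at D2. Here D0 mouse 5 lay inside the D2 range and the other 4 controls lay above it, and the change was -1.28 (SE 0.28, adjusted p = 0.033). Meg3 was well above background on 4 of the 5 D0 arrays and 1 of the 5 D2 arrays, and it kept its call in 1 of the 10 sets with a mouse left out, the one without mouse 5 (highest adjusted p = 0.102, without D0 mouse 1). Malat1, the abundant speckle RNA, changed by -0.31 (SE 0.11, adjusted p = 0.204) and was not called. Of 9 nuclear long RNAs tested, these 2 were called, 6 were lower, and the median change was -0.21, against -0.02 over all 12053 tested genes, of which 0.572% were called lower (1.05% without mouse 5).

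Ccnl2, Ddx17 and Clk1, which act in RNA processing, fell. Ccnl2, a cyclin L of nuclear speckles, read 0.39, -0.04, 0.18, 0.29 and -1.46 in the controls and -1.62, -1.48, -1.80, -1.64 and -1.78 at D2. The controls of mice 1 to 4 were far above every D2 liver and mouse 5 was just above the highest. Its change was -1.54 (SE 0.24, adjusted p = 0.00358), and -1.87 (adjusted p = 1.69e-07) without mouse 5, yet a second Ccnl2 probe changed by -0.07 (adjusted p = 0.818). Ddx17, an RNA helicase, fell by 1.13 (SE 0.17, adjusted p = 0.00239), or by 1.28 without mouse 5, with controls at -1.88 to -0.79 and D2 livers at -2.67 to -1.98. Clk1, a kinase that phosphorylates SR proteins, changed by -0.68 (SE 0.14, adjusted p = 0.0186) and kept its call in 6 of the 10 sets with 1 mouse left out (highest adjusted p = 0.0649, without D0 mouse 4). Among the 11 cyclin L, CLK kinase and helicase genes tested, 9 were lower, these 3 were called, and the median change was -0.51, or -0.60 without mouse 5, with 5 called. Of all tested genes, 0.572% were called lower, or 1.05% without mouse 5.

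Among SR proteins and SR-related splicing factors, 1 gene was called. Of 22 tested, 18 were lower, with a median change of -0.27, and 4 were called without mouse 5. The share of all tested genes called lower was 0.572%, or 1.05% without mouse 5. The called gene was Pnisr, an SR-related protein, at 0.49, 0.10, 0.67, 0.43 and -0.94 in the controls and -0.71, -0.77, -0.88, -1.01 and -1.31 at D2 (change -1.08, SE 0.24, adjusted p = 0.0308). Mouse 5 again lay among the D2 livers, and Pnisr kept its call in 3 of the 10 leave-outs (highest adjusted p = 0.0922, without D0 mouse 1). Rbm5, a splicing regulator, changed by -0.53 (adjusted p = 0.00239) and Pnn, the speckle protein pinin, by -0.58 (adjusted p = 0.0241), both under the 1.5-fold limit.

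Both called small nuclear RNAs, a class that forms the core of the spliceosome and lacks a poly(A) tail, rose. Rnu1b6, a U1 RNA, read -1.21, -2.41, -1.77, -1.77 and -0.16 in the controls and -0.05, -0.42, 0.20, 0.20 and 0.24 at D2. The controls of mice 1 to 4 were below every D2 liver, while mouse 5 lay within the D2 range. The change was 1.5 (SE 0.31, adjusted p = 0.0222), a 2.82-fold rise, and 1.82 without mouse 5. Rnu2-10, a U2 RNA, rose by 0.84 (SE 0.17, adjusted p = 0.0207). They kept the call in 4 and 6 of the 10 leave-outs, with the highest adjusted p (0.0687 and 0.0649) without D0 mouse 4. These 2 were the only called probes among 5 that RefSeq classes as small nuclear RNA. Over 9 small nuclear and nucleolar RNAs tested, 8 were higher, 2 were called and the median change was 0.19, beside 0.0415% of all tested genes called higher (0.0581% without mouse 5). Under centring of each array on its median in place of loess, which moved the median of all tested probes from -0.01 to -0.18, that median was -0.02, and Rnu1b6 and Rnu2-10 were not called.

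**Figure D2:**
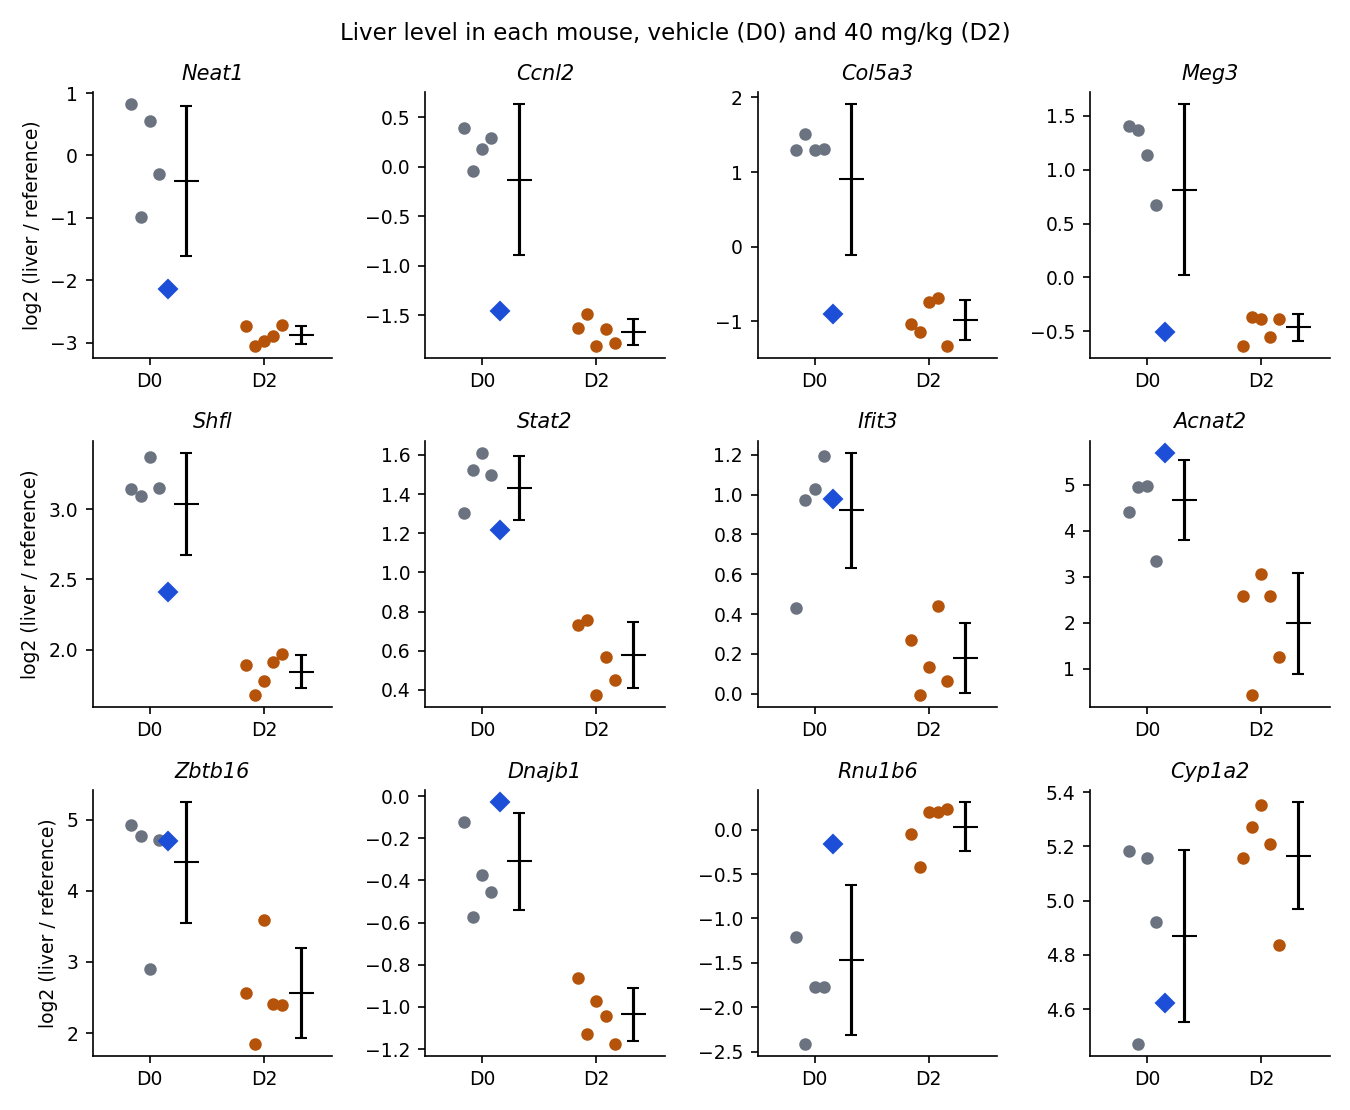
Level of 12 genes (vertical, log2 of liver over reference) in each of the 5 vehicle livers (grey, D0) and the 5 livers given 40 mg/kg-bw/day (orange, D2); the blue diamond is D0 mouse 5, and bars give the mean and SD. Mouse 5 sits with or next to the D2 livers for Neat1, Ccnl2, Col5a3, Meg3 and Rnu1b6, and with the other controls for Ifit3, Acnat2, Zbtb16 and Dnajb1.

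How far mouse 5 resembled the treated livers was measured for each called decrease as its position between the D2 mean (0) and the mean of the other 4 controls (1). The median position over 128 probes was 0.334, and 91 lay nearer the D2 mean, beside 11907 of all 22800 tested probes. Meg3 (-0.03), Pnisr (-0.01), Oas2 (0.11) and Ccnl2 (0.11) were at the D2 end, Neat1 was at 0.25, and Stat2 (0.70), Ifi27 (0.90), Ifit3 (1.10), Rsad2 (1.12), Zbtb16 (1.21) and Dnajb1 (1.54) were at the control end. For 22 probes the position was above 0.75. Altogether 84 of the 129 decreases showed no overlap between the groups (1.83% of all tested probes had D2 wholly below D0), and 123 did without mouse 5 (4.32% of all). Of the 7 increases, 4 showed no overlap (0.912% of all). The cause of the low values of this liver was not tested.

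**Figure D3:**
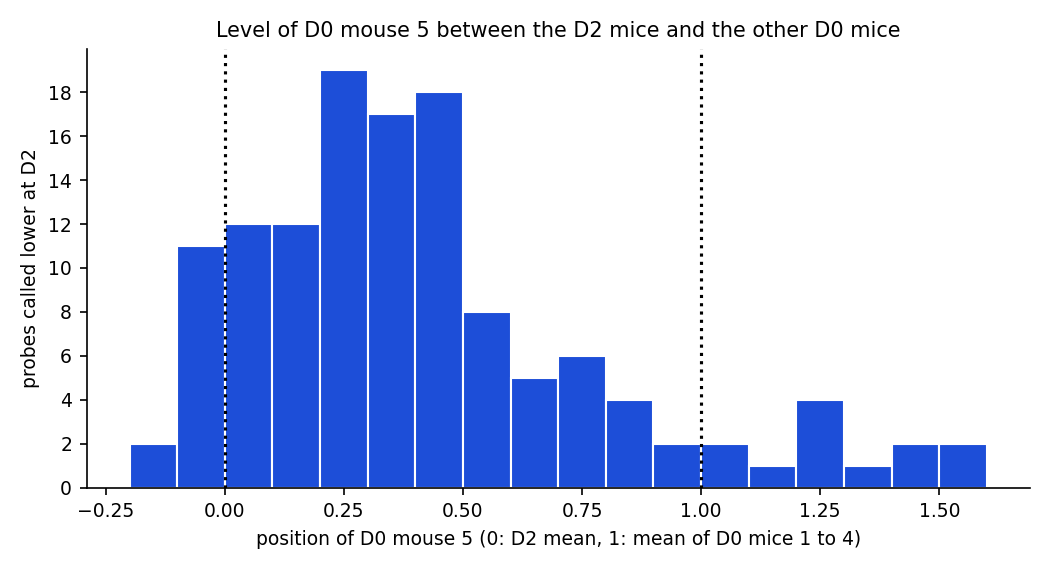
Number of called decreases (vertical) by the position of D0 mouse 5 (horizontal, no unit), where 0 is the mean of the 5 D2 livers and 1 the mean of D0 mice 1 to 4; 128 probes with a value are drawn. Most lie below 0.5, with a smaller set of 22 probes above 0.75.

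Interferon-stimulated genes were the next group. Of 16 tested, 15 were lower and 4 were called (Xaf1, Oas2, Ifit3 and Rsad2), with a median change of -0.67, or -0.64 without D0 mouse 5 and the same 4 genes called. Of all tested genes, 0.572% were called lower, or 1.05% without that mouse. Mean list scores ran from -0.42 to 0.41 in the D0 livers and from -0.87 to -0.32 in the D2 livers, so the groups overlapped. Across all processing alternatives the median change stayed between -0.89 and -0.52. Within slides it was -0.83, -0.13 and -0.79.

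The promoters of 3 of the genes that fell are shown because they hold the core of the response element. A pair of GAAA with 2 bases of any kind between them (on the other strand, a pair of TTTC) was searched in the 250 bases before each start in the RefSeq promoter table (GRCm38.p6), with overlapping matches counted and no other motif searched. Matches are in capitals, and each sequence is read 5′ to 3′ on the gene's strand.
Ifit3, chr19:34583279-34583528, plus strand: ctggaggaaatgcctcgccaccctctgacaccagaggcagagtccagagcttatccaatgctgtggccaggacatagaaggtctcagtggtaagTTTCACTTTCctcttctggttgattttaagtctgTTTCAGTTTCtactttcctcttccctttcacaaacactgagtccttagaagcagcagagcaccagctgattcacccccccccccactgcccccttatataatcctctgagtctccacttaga
Rsad2, chr12:26456453-26456702, minus strand: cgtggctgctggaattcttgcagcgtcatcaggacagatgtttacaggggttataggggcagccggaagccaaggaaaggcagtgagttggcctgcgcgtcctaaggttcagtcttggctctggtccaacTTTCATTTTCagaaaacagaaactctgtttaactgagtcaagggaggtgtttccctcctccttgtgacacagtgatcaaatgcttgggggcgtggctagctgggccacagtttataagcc
Stat2, chr10:128270248-128270497, plus strand: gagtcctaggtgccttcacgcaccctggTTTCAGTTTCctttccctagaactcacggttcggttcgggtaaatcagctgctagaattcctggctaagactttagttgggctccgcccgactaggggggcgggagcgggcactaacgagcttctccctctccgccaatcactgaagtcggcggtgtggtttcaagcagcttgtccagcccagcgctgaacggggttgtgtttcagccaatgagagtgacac
Ifit3 holds 2 matches, at 156 to 147 and 122 to 113 bases before the start, Rsad2 holds 1 at 120 to 111, and Stat2 holds 1 at 222 to 213. Of the 16 listed genes tested, 14 had a promoter in the table and 7 of them held a match (50.0%), against 2.98% of all 32851 promoters. The list was made of interferon-stimulated genes, so a high share follows from its choice and says nothing about these livers. Of the listed genes with a match, Ifit3 and Rsad2 were called, while Oas1a, Isg15, Ifit1, Cxcl10 and Gbp2 were not. Stat2 is not on that list. The window held no match for Xaf1, or for Samd9l and Helz2, which were also called, and Oas2 was not in the table. A match is a description of these letters and not a measured site.

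Ifit3, which binds viral RNA with its family members, read 0.43, 0.97, 1.03, 1.19 and 0.98 in the controls and 0.27, 0.00, 0.13, 0.44 and 0.07 at D2. The highest D2 liver just overlapped the lowest control, and mouse 5 was among the middle controls. Its change was -0.74 (SE 0.15, adjusted p = 0.0154), and -0.67 (adjusted p = 0.0523) without D0 mouse 4. Rsad2, the antiviral enzyme viperin, read 0.01, 0.25, 0.39, 0.39 and 0.34 in the controls and -0.28, -0.25, -0.76, -0.12 and -0.52 at D2, with no overlap. It changed by -0.66 (SE 0.14, adjusted p = 0.0239), and was called in 5 of the 10 leave-outs (highest adjusted p = 0.0739, without D2 mouse 13). Xaf1, a pro-apoptotic interferon target, changed by -0.97 (SE 0.18, adjusted p = 0.0103) and kept its call whichever mouse was left out. Oas2, which makes the activator of RNase L, changed by -0.78 (SE 0.19, adjusted p = 0.0482), with mouse 5 inside the D2 range. It kept the call in 1 of the 10 leave-outs, and its adjusted p reached 0.122 without D0 mouse 3.

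Other interferon-responsive genes were called outside the list. Shfl, an interferon-induced inhibitor of viral translation, read 3.14, 3.1, 3.37, 3.15 and 2.41 in the controls and 1.89, 1.68, 1.77, 1.91 and 1.97 at D2. Every control was above every D2 liver, with mouse 5 the lowest control. The change was -1.19 (SE 0.14, adjusted p = 0.000678). Ifi27, an interferon-induced membrane protein, fell from 1.67 to 0.59 (change -1.08, SE 0.21, adjusted p = 0.0136). Of the genes chosen after their values were seen, Stat2, which carries the signal of the interferon receptor, read 1.30, 1.52, 1.61, 1.5 and 1.22 in the controls and 0.73, 0.76, 0.38, 0.57 and 0.45 at D2, again with no overlap, and changed by -0.85 (SE 0.13, adjusted p = 0.00239), or -0.91 without mouse 5. Nlrc5, the activator of MHC class I genes, changed by -0.98 (adjusted p = 0.00602), though a second probe changed by -0.21 (adjusted p = 0.574). Helz2, an interferon-induced helicase, changed by -0.70 (adjusted p = 0.00821). Shfl, Ifi27, Stat2, Nlrc5 and Helz2 stayed called whichever mouse was left out. Samd9l changed by -0.89 and by -0.65 on its 2 probes, both called, the first in 5 of the 10 leave-outs (adjusted p = 0.067 without D0 mouse 3). Iigp1 (-0.87, adjusted p = 0.0495) and Dhx58 (-0.69, adjusted p = 0.0467) sat at the threshold and kept the call in 1 and 3 of the 10 leave-outs, with an adjusted p of up to 0.131 (without D2 mouse 13) and 0.124 (without D0 mouse 4). A second Iigp1 probe changed by -0.49 (adjusted p = 0.302). Of the listed genes that were not called, Isg15 (-0.81, adjusted p = 0.0518), Usp18 (-0.81, adjusted p = 0.0568) and Oas1a (-0.81, adjusted p = 0.172) had changes of similar size, while Ifit2 changed by 0.03.

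**Figure D4:**
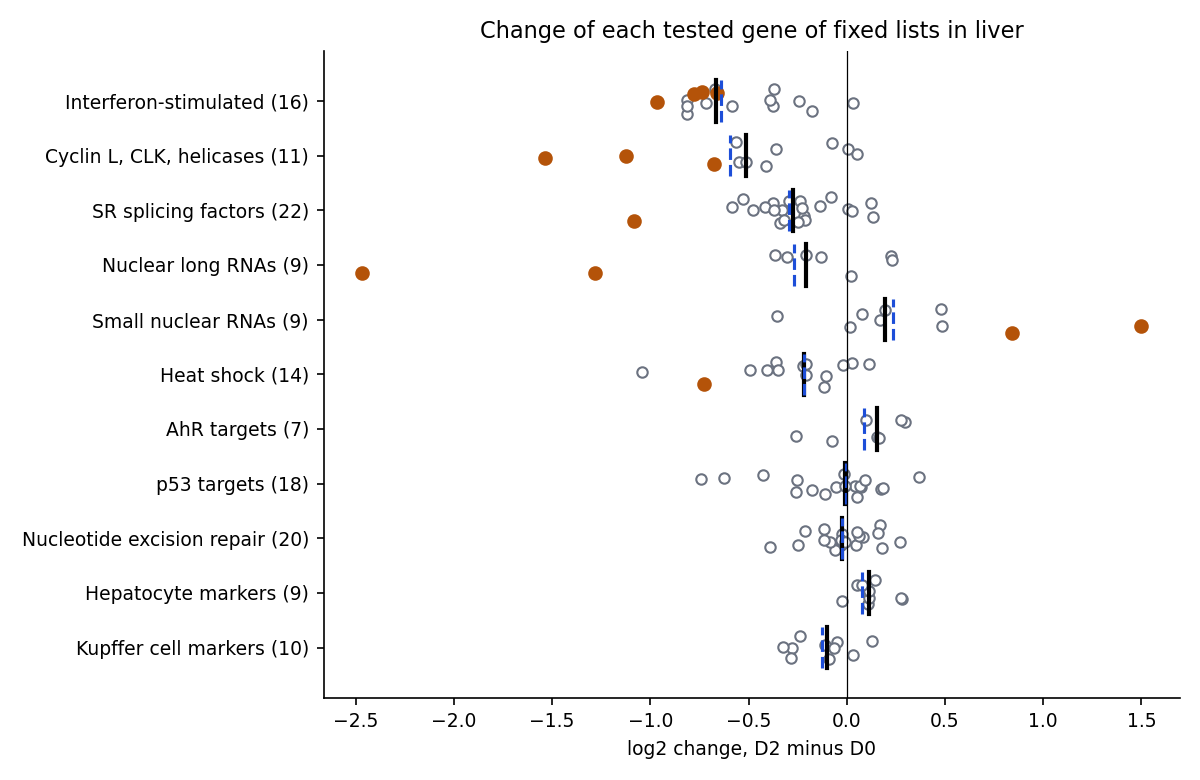
Change at D2 (horizontal, log2) of each tested gene in 11 lists, with the number tested in brackets; filled points were called, black bars are list medians and blue dashed bars are medians without D0 mouse 5. The interferon list (median -0.67) and the cyclin L, CLK and helicase list (median -0.51) lie to the left of 0, and the AhR, p53 and repair lists are centred near it.

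Metabolic genes held some of the largest single changes. Acnat2, a peroxisomal acyl-CoA amino acid N-acyltransferase that conjugates fatty acids to taurine, read 4.41, 4.96, 4.96, 3.34 and 5.69 in the controls and 2.58, 0.43, 3.06, 2.58 and 1.24 at D2. All controls were above all D2 livers, and mouse 5 was the highest control. The change was -2.69 (SE 0.59, adjusted p = 0.0292), a 6.47-fold decrease, and -2.55 on its second probe. Its call was kept in 5 of the 10 leave-outs (highest adjusted p = 0.0745, without D0 mouse 2). It was well above background on 5 D0 and 4 D2 arrays. None of the 11 other acyl-CoA thioesterases and acyltransferases tested was called, among them Acot4 (-0.62, adjusted p = 0.432), Acnat1 (-0.24) and Baat (-0.52). Cyp21a1, the steroid 21-hydroxylase, changed by -1.38 (adjusted p = 0.0416) and Cyp2j9, a cytochrome P450 enzyme, by -1.09 (adjusted p = 0.0451). Each kept its call in 2 of the 10 leave-outs, with an adjusted p of up to 0.119 (without D0 mouse 1) and 0.125 (without D0 mouse 2). Adrb3, the beta-3 adrenergic receptor, changed by -1.49 (SE 0.29, adjusted p = 0.0149) and -1.40 on 2 probes, with mouse 5 at 2.17 inside the D2 range of 2.02 to 2.49. The first Adrb3 probe was not called without D0 mouse 4 (adjusted p = 0.0523), and the second kept its call in 2 of the 10 leave-outs.

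Zbtb16, a transcriptional repressor induced by glucocorticoids, read 4.92, 4.78, 2.89, 4.71 and 4.70 in the controls and 2.57, 1.85, 3.58, 2.41 and 2.39 at D2. Its groups overlapped through D0 mouse 3 and D2 mouse 13. The change was -1.84 (SE 0.36, adjusted p = 0.0154), and the call was kept in 8 of the 10 leave-outs (highest adjusted p = 0.0527, without D0 mouse 2). It was the only called gene among 13 glucocorticoid-responsive and metallothionein genes, of which 7 were lower, beside 0.572% of all tested genes called lower. Fkbp5, another glucocorticoid target, changed by -0.42 (adjusted p = 0.654). Dnajb1, a co-chaperone of Hsp70, read -0.12, -0.57, -0.37, -0.45 and -0.03 in the controls and -0.86, -1.13, -0.97, -1.04 and -1.17 at D2, with no overlap, and changed by -0.73 (SE 0.12, adjusted p = 0.00515). Hspa1a, an inducible Hsp70, changed by -1.04 (SE 0.26, adjusted p = 0.0541) and was above background in 3 D2 livers, and it changed by -1.09 (adjusted p = 0.0448) without D0 mouse 5. Of 14 heat shock genes tested, 12 were lower, 1 was called, and the median change was -0.22, beside 0.572% of all tested genes called lower.

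The remaining decreases of largest size had mixed roles. Col5a3, a chain of type V collagen, read 1.29, 1.51, 1.29, 1.31 and -0.90 in the controls and -1.03, -1.14, -0.74, -0.69 and -1.32 at D2. Its change was -1.89 (SE 0.33, adjusted p = 0.00641), and -2.34 (adjusted p = 2.55e-07) without mouse 5, the lone control among the D2 values. Dido1, a nuclear protein linked to apoptosis, read 0.30, 0.14, 0.29 and 0.36 in D0 mice 1 to 4, with mouse 5 missing as an outlier spot, and -0.99, -0.95, -0.82, -1.17 and -1.04 at D2. It had the smallest adjusted p of all probes (5.28e-05, change -1.27, SE 0.12), but with no value of mouse 5. With mouse 5 left out for all probes, the adjusted p of Dido1 was 2.56e-06, above the 1.69e-07 of Ccnl2. The 2 other Dido1 probes changed by 0.02 each. Fam193b changed by -1.09, Tmod4, a tropomodulin, by -1.02, and the non-coding RNA 1500011B03Rik by -1.14. Col5a3, Dido1, Fam193b, Tmod4 and 1500011B03Rik kept their calls whichever mouse was left out. Acrbp, the acrosin-binding protein, changed by -1.16 on a probe above background in 1 of 5 D2 livers, and by -0.58 and -0.07 on 2 others. It kept its call in 2 of the 10 leave-outs (adjusted p = 0.0973 without D0 mouse 1), as did Gm4956 (change -1.25, adjusted p = 0.119 without that mouse). The pseudogene Pisd-ps3 (change -1.13) was called in 5 (adjusted p = 0.068 without D0 mouse 4).

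Probes of one gene often disagreed. Called probes covered 86 genes with a symbol, of which 30 had several tested probes. All probes were called for 5 of these genes (Acnat2, Adrb3, Arrdc2, Lime1 and Samd9l), and for 8 genes another probe changed by less than 0.1 in either direction. Beyond that limit, Rbm33 and Cutal each had a called decrease and a second probe that rose, by 0.21 and 0.20. The probes named NEAT1, all called, carry no symbol and were not counted with Neat1 here. Where in a transcript each probe lies was not analysed here.

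Probes to genomic intervals, named on the array by mm9 coordinates, made up 16.3% of the called decreases and 13.8% of the tested probes. The 21 called interval probes that were lower fell in 11 coordinate ranges. The interval chr16:23992037-24001037 held 3 probes on its forward strand, with changes of -2.19, -2.13 and -1.85, and 2 on its reverse strand, at -1.06 and -0.60. The third forward probe and the first reverse probe were above background on 1 of the 5 D2 arrays and the second reverse probe on 0, so these sizes rest on dim signals. The first of these probes read 3.50, 2.62, 3.62, 2.50 and 1.34 in the controls and 1.04, 0.65, 0.21, 0.48 and 0.25 at D2, with no overlap. The 3 called probes of chr13:48620882-48643532 on the reverse strand changed by -1.31, -1.30 and -0.77 (the last above background on 1 D2 array), with D0 mouse 5 at -1.07 between the other controls and the D2 livers on the first. Interval chr5:123582742-123588117, also reverse, held 3 called probes, at -1.62, -1.21 and -1.08. The range chr5:123582742-123588202, counted apart above, shares its start and strand and held a called probe at -1.40. No gene is named for these intervals because no mm9 annotation was used here. One interval probe was higher, chr13:34693404-34717987 (0.61, adjusted p = 0.0495).

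Few coding genes rose. Tbx3, a T-box transcription factor active in pericentral liver, read 1.28, 1.25, 2.03, 1.77 and 1.63 in the controls and 2.75, 3.02, 1.88, 2.25 and 2.77 at D2. D2 mouse 13 overlapped the highest control, and the change was 0.94 (SE 0.22, adjusted p = 0.0455). Bend3, a repressor of chromatin, read -0.58, -0.51, -0.78, -0.28 and -0.20 in the controls and 0.38, 0.30, -0.14, 0.29 and 0.10 at D2, with no overlap (change 0.66, SE 0.11, adjusted p = 0.00515). Azin1, which stabilises the polyamine enzyme ornithine decarboxylase, changed by 0.60 (adjusted p = 0.0109) on 1 probe and by 0.09 and 0.06 on 2 others. Osbpl3, an oxysterol-binding protein, changed by 0.63 (adjusted p = 0.0497), on a probe above background in 1 D0 and 4 D2 livers. A second Osbpl3 probe changed by 0.55 (adjusted p = 0.116). With 1 mouse left out, Tbx3 kept its call in 3 of 10 sets (adjusted p = 0.124 without D0 mouse 1), Osbpl3 in 2 (adjusted p = 0.135 without D0 mouse 1), Azin1 in 6 and Bend3 in 9, the last pair falling under the fold limit without D0 mouse 3 (changes of 0.54 and 0.58). None of the 7 increases passed the test with median centring, under which Tbx3 changed by 0.70 (adjusted p = 0.208).

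No tested AhR target was called, with 0.614% of all tested genes called. Cyp1a2, the main hepatic Cyp1 enzyme, read 5.18, 4.47, 5.16, 4.92 and 4.62 in the controls and 5.16, 5.27, 5.35, 5.21 and 4.84 at D2. The groups overlapped and the change was 0.29 (SE 0.16, adjusted p = 0.464), with a 95% interval of -0.04 to 0.63, and 0.23 (adjusted p = 0.578) without mouse 5. Cyp1a1 was well above background on 1 of the 19 liver arrays and was not tested. Cyp1b1 changed by 0.15 (adjusted p = 0.808), on a probe above background in 3 D0 and 1 D2 livers, and Nqo1, a quinone reductase, by 0.10 (adjusted p = 0.825). Of 7 AhR targets tested, 5 were higher and 0 were called, and their median change was 0.15, or -0.09 with median centring. Genes downstream of p53 gave the same count: of 18 tested, 8 were higher, 10 were lower and 0 were called, with a median of -0.01. Cdkn1a, which encodes the cell cycle inhibitor p21, changed by 0.05 (95% interval -0.34 to 0.44). Nucleotide excision repair genes, which remove bulky adducts, had 0 called of 20. The intervals bound these changes and do not show that the levels were alike.

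Other lists of liver genes also had 0 called, where 0.614% of all tested genes were called, so that lists of this size would be expected to hold few or none. These were Nrf2 targets (17 tested), CAR and PXR targets (11), conjugating enzymes (23), PPARα and fasting targets (21), cholesterol synthesis and uptake (20, of which 17 were lower, median -0.13), lipogenesis (13), bile acid genes (14), clock output genes (10), the unfolded protein response (15), acute phase genes (20) and proliferation genes (18). The cholesterol median was 0.0646, 0.0422 and -0.445 within slides 1 to 3, so its lean was on the third slide only. Dbp, a clock output gene, changed by 0.84 (SE 0.49, adjusted p = 0.509). Cell type markers showed no called gene among 9 hepatocyte, 10 Kupffer cell, 10 sinusoidal endothelial, 9 stellate, 6 cholangiocyte, 3 B cell, 6 T cell and 3 neutrophil genes. The Kupffer cell list had a median change of -0.10, with mean list scores from -0.49 to 0.55 in the D0 livers and from -0.76 to 0.61 in the D2 livers, and the hepatocyte list one of 0.11, with scores from -0.29 to 0.27 and from -0.06 to 0.28. The part of cell composition in the interferon result was not tested.

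The D2 livers were then set beside the other doses. Direct comparison with D1 gave 0 called probes by limma (1243 at an unadjusted p under 0.05), and comparison with D3 gave 2 (0.00877%), or 21 with the slide as a block. Those 2, chosen after their values were seen, were Pheta2, at 0.59 in D2 and 2.58 in D3 (adjusted p = 0.0441), and the interval probe chr19:5801802-5802597, at -0.36 and -1.29 (adjusted p = 0.0375). Each dose has its own comparison with the same 5 controls, which called 55 probes at D1 (0.241%) and 99 at D3 (0.434%), or 168 (0.737%) and 202 (0.886%) without mouse 5. From D0 to D3 the mean level of Neat1 was -0.41, -2.65, -2.88 and -2.59, that of Ccnl2 -0.13, -1.57, -1.67 and -1.43, and that of Stat2 1.43, 1.00, 0.58 and 1.02. Acnat2 stood at 4.67, 3.57, 1.98 and 2.55, and Xaf1 at -0.35, -0.70, -1.32 and -1.26. No difference between neighbouring BaA doses passed the test for these 5 genes.

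The lungs of the same mice differed from the livers in the D2 change. For 510 of the 21880 probes tested in both tissues (2.33%) the D2 change differed between liver and lung, 67 with the higher and 443 with the lower change in liver. Without mouse 5 in either tissue the count was 691 (3.16%), and Neat1 differed by -4.17, Ccnl2 by -2.50, Shfl by -1.85 and Rnu1b6 by 3.06. Of the 129 called decreases of liver, 120 were tested in both tissues, and 88 of these had a positive change in lung. Some of these probes are of the same transcript, and the share of all probes with a positive lung change was not computed. Neat1 changed by 1.25 in lung (SE 0.30), so that the liver change was lower by 3.71 (adjusted p = 7.48e-06). The difference between tissues was -2.17 for Ccnl2 (adjusted p = 1.21e-05) and -1.69 for Shfl (adjusted p = 9.74e-08). The snRNAs went the other way: Rnu1b6 changed by -1.30 in lung, a difference of 2.80 (adjusted p = 3.48e-05). Among interferon genes, Nlrc5 (-1.54, adjusted p = 0.001), Samd9l (-1.18), Helz2 (-0.93) and Stat2 (-0.81), all chosen after their values were seen, differed between tissues. For Ifit3 the changes were -0.74 in liver and -0.16 in lung, for Xaf1 -0.97 and -0.58, for Oas2 -0.78 and -0.96, and none of these differences passed the test. Dnajb1 changed by -0.89 in lung, beside -0.73 in liver, and their difference did not pass the test either. In both tissues array position followed the dose.

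**Figure D5:**
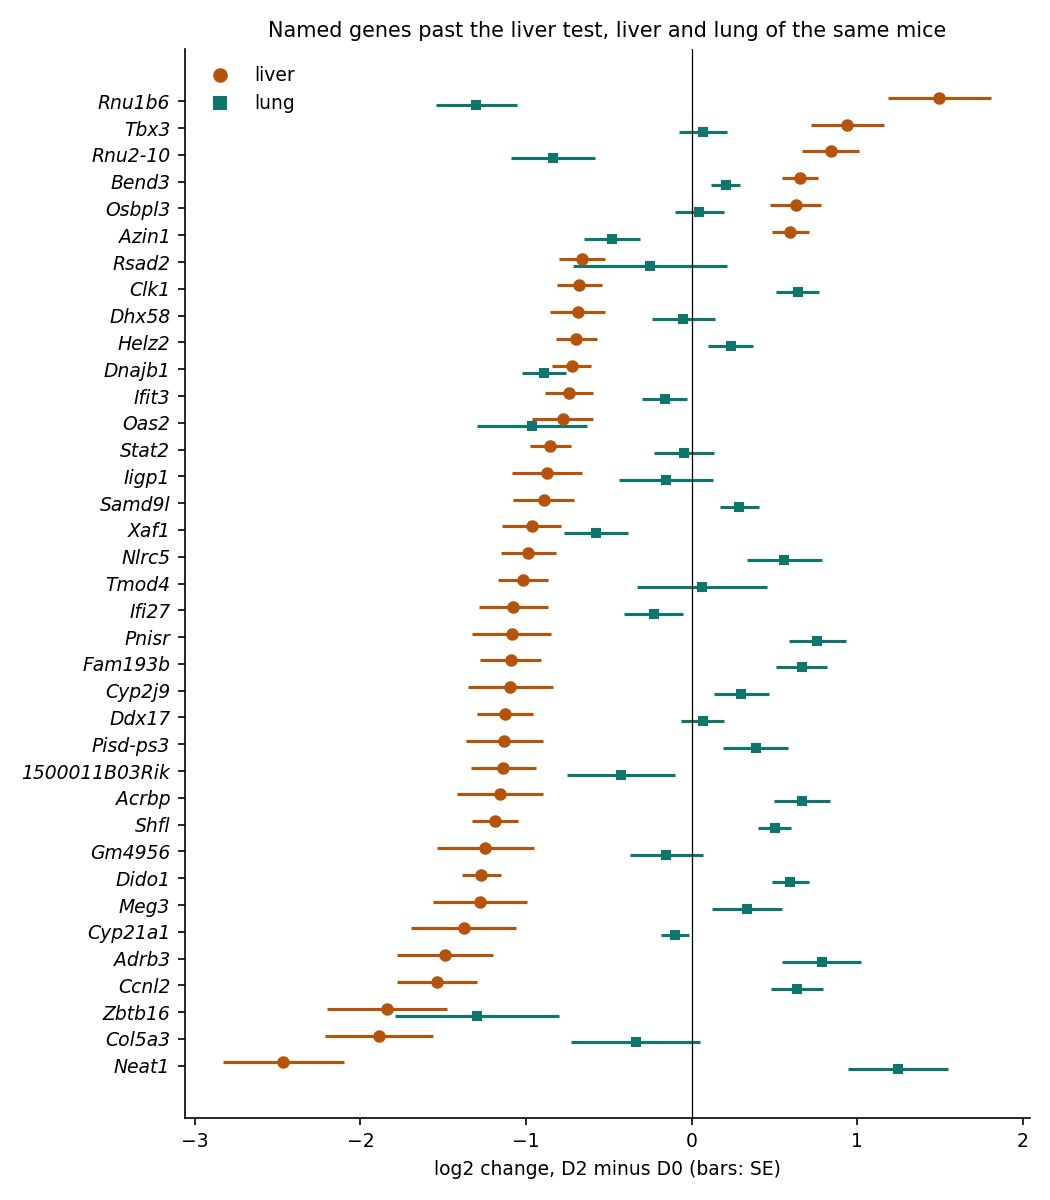
Change at D2 (horizontal, log2, bars give the SE) in liver (orange circles) and in lung (green squares) for the named genes called in liver and measured in lung. The changes of Neat1, Ccnl2, Pnisr and Shfl are negative in liver and positive in lung, that of Rnu1b6 the reverse, and those of Dnajb1, Oas2 and Zbtb16 negative in both.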

How the data were processed

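RNA of snap-frozen liver (19 arrays) and lung (20 arrays) was measured on 2-colour Agilent mouse arrays, with tissue RNA in Cy5 and a universal reference in Cy3, without dye swaps. The intensity values were deposited as Feature Extraction 10.7.3.1 output; the authors also deposited a log2 ratio table, made from unsubtracted median signals by LOWESS within each array, which was used as an alternative. From the median signals, log2 Cy5/Cy3 ratios were computed here with loess within each array in limma 3.58.1 (R 4.3.3). Outlier spots were removed, spots of a probe were averaged, and probes were tested when at least 4 of the 19 liver arrays had them well above background in Cy5.

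All liver arrays entered 1 limma model with a mean per dose, and contrasts were tested with moderated statistics, two-sided, with Benjamini-Hochberg adjustment over all tested probes. The methods' tool, MAANOVA, was not used here. Each array came from a separate mouse, and the number of arrays limits the precision. The contrast with lung used all 39 arrays. Lung and liver of the same number came from the same mouse per the labels, and their deviations from the group means correlated with a median r of 0.124 (-0.0323 to 0.193). On simulated data with the same 22800 probes, 94% of probes changed by 1 on the log2 scale were recovered for D2 against D0, with 3 false calls. Recovery with a deviating control such as D0 mouse 5, or with differences between slides or array positions, was not tested.

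Named genes were all called increases with a symbol, the 20 largest called decreases with a symbol and all D2 livers on 1 side of the D0 mean, called genes of the lists, and a set of reference genes. Stat2, Nlrc5, Samd9l, Iigp1, Helz2 and Dhx58 were added to the named genes after their values were seen. Members and lists were chosen with earlier results of these data known. In lists, a gene was represented by its brightest probe. Promoter sequences are from RefSeq (GRCm38.p6). Alternatives covered background correction, centring, signals, filters, slide as a block and leaving out each mouse. Mouse 5 was singled out, and left out of the D1 and D3 comparisons, after seeing the data.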

Additional observations from a re-analysis of the deposited data

Results flagged for a closer look

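Levels of the named genes were screened for single livers far from the rest of their group. Of 92 groups, 10 held such a liver, where chance gives about 1 in 20 groups. In 6 of the 10 it was D0 mouse 5, the lowest control for Col5a3 (-0.898), Ccnl2 (-1.46), Shfl (2.41), Acrbp (-0.284), Fam193b (-1.54) and Tmod4 (-0.194). D0 mouse 3 was the lowest control for Zbtb16 (2.89) and D0 mouse 2 the highest for Nqo1 (-1.01). Among D2 livers, mouse 15 was the highest for Adrb3 (2.49) and mouse 12 the highest for Cyp21a1 (1.30).

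The D2 change differed between liver and lung by limma's interaction test for 23 of the 44 named genes measured in both, and all 23 differed without D0 mouse 5. Most named genes were chosen for their liver change, which is part of this contrast, so a high count follows from that choice. Over all 21880 probes tested in both tissues, 2.33% differed. The liver change exceeded the lung change for Rnu1b6 by 2.80, Rnu2-10 by 1.68 and Azin1 by 1.08, and for Hspa1a by 1.59, where the change was -1.04 in liver and -2.63 in lung. It was lower in liver among the nuclear RNAs and RNA-processing genes Neat1 (-3.71), Ccnl2 (-2.17), Pnisr (-1.84), Meg3 (-1.61), Clk1 (-1.32), Ddx17 (-1.19) and Malat1 (-0.729). The same direction was seen for the interferon-responsive genes Shfl (-1.69), Nlrc5 (-1.54), Samd9l (-1.18), Helz2 (-0.932) and Stat2 (-0.806). All of these but Shfl were chosen after their values were seen. The other differences were those of Adrb3 (-2.27), Dido1 (-1.87), Acrbp (-1.83), Fam193b (-1.76), Pisd-ps3 (-1.52), Cyp2j9 (-1.39) and Cyp21a1 (-1.28). Adjusted p ranged from 7.4e-09 for Dido1 to 0.034 for Stat2.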

How the results depend on the processing

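The count of probes called between D2 and D0 (136) became 210 with median centring in place of loess (0 higher), 208 with Agilent's processed signals, 83 from the Cy5 channel alone, 58 when only the compared groups entered the model and 259 with no minimum fold. It stayed within 1.5 times under normexp background correction (118), in the authors' log2 table (110), with no filter on dim probes (112), with probes above background on every array (104) and with the slide as a block (171). Leaving out 1 mouse gave 72 (without D0 mouse 4) to 252 (without D0 mouse 5). Median centring moved the median of all tested probes to -0.176. D2 against D1 gave 0 calls under every alternative. D3 against D2 (2 calls) gave 1 with normexp, 0 with median centring, 5 in the authors' table, 20 with processed signals, 26 from Cy5 alone, 1 with probes above background on every array, 21 with the slide as a block, and 0 to 48 on leaving out 1 mouse (48 without D3 mouse 16). The count that differed between liver and lung (510) was 583 with the mouse as a replicate block, which pairs lung and liver, and 351 to 580 under the other processing alternatives, with 372 to 691 on leaving out 1 mouse. The 351 came with median centring, where 1 was higher and 350 were lower in liver, and the median of all probes was -0.664. The direction seen for Rnu1b6 was thus nearly lost over all probes under that setting. D2 and D0 liver share no mouse, so the mouse could not be a block there.

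No named gene called between D2 and D0 changed sign under any alternative. Of the values for genes that were not called, 15 changed sign. Alb was at 0.01178 with normexp and 0.00547 in the authors' table, and between -0.1232 and 0.02895 on leaving out 1 mouse. Cyp1b1 was at -0.02934 with median centring, -0.9225 with processed signals and -0.1168 from Cy5 alone. Cdkn1a was at -0.1775 with median centring and between -0.02668 and 0.1701 on leaving out 1 mouse. Nqo1 was at -0.1051 with median centring. The causes were not tested, except that fewer arrays entered some models. Meg3, Acrbp, Osbpl3 and Cyp1b1 were near background on some arrays.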

Other observations

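Some lists leaned in 1 direction with 0 called genes, beside 6503 of all 12053 tested genes lower. Not all of these leans were shared by the 3 slides, of which the third held 1 D2 array. Of 15 genes of the unfolded protein response, 13 were lower at D2 (median change -0.20, or -0.10 without D0 mouse 5). Within slides 1 to 3 that median was -0.371, 0.0436 and -0.452. Of 14 genes of bile acid synthesis and transport, 11 were higher (median 0.13, or 0.06 without D0 mouse 5; within slides 0.0199, 0.039 and 0.333). Of 13 lipogenic genes, 10 were lower (median -0.14, and within slides -0.0123, 0.108 and -0.556). The 3 clock genes of opposite phase were all lower (median -0.38, and within slides -0.578, -0.589 and -0.447). Their list scores ran from -0.74 to 1.02 in the D0 livers and from -0.89 to 0.10 in the D2 livers. The 81 cytosolic ribosomal protein genes (median -0.01) and the 90 respiratory chain genes (median 0.01) stayed near 0.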
